A study of Mus musculus with 3 samples.

Results

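The vascular endothelial growth factor (VEGF) ligands and receptors measured here are 8 genes, namely the ligands Vegfa, Vegfb and Vegfc, the receptor tyrosine kinases Flt1, Kdr and Flt4, and the co-receptors Nrp1 and Nrp2. They were taken by name from UMI tables of nuclei of mouse brown adipose tissue (BAT), and all 8 are among the 23041 genes listed for the untreated, the 23364 for the sham and the 23089 for the denervated library. Each library came from adult C57Bl6 mice labelled WT, either without treatment, after a sham operation or after denervation, which cuts the sympathetic nerves of BAT and in the study's methods was done on 1 side, with nuclei taken at day 3. The study's legend for the denervated nuclei also lists tamoxifen, which its legend for the untreated nuclei does not. Any effect of tamoxifen cannot be told apart from that of denervation. The nuclei came from the floating layer of digested BAT of pooled mice, which leaves out much of the stroma, and the pooling is stated for the untreated and denervated libraries. The file headers name the run of the untreated table nC and that of the denervated table nKO, names that do not match the labels, which call all mice WT. The groups follow the labels, and what the run names stand for is not given in the sources used here. With 1 library per condition there is no replicate spread, so no p-value is given, differences between conditions cannot be told apart from differences between libraries, and all intervals cover counting error only.

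VEGF ligands are secreted proteins that bind receptor tyrosine kinases on endothelial cells (ECs), the cells that line blood vessels. Vegfa binds KDR, the main signalling receptor for vessel growth, and FLT1, which also acts as a decoy, whereas Vegfb binds FLT1 and Vegfc binds FLT4, the receptor best known from lymphatic vessels. Neuropilins bind several of these ligands and hand them to the receptors, and brown adipocytes (BAs) are a known source of Vegfa in BAT, a tissue with a dense capillary bed.

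The genes lie on 6 chromosomes of GRCm38 (GENCODE vM21). Vegfa spans chr17:46016993-46032369, Vegfb chr19:6982473-6987651 and Vegfc chr8:54077606-54187096, and the receptor genes span chr5:147561604-147726011 for Flt1, chr5:75932827-75978458 for Kdr and chr11:49609263-49652739 for Flt4. Nrp1 lies at chr8:128358604-128503363 and Nrp2 at chr1:62703285-62818695. Nrp2 is the only member with an annotated antisense gene inside it, which had 1 UMI over all tables. Because a nucleus holds unspliced RNA and gene length can change how many molecules are captured, levels are compared for 1 gene at a time and not between genes.

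The 250 bases upstream of the start site are shown for Vegfa, a ligand with more UMIs in BA-like than in EC-like nuclei, and for its receptors Flt1 and Kdr, with the opposite pattern, as RefSeq gives them on GRCm38.p6. They lie at chr17:46032378-46032627 for Vegfa (the more upstream of 2 listed starts), chr5:147726012-147726261 for Flt1 and chr5:75978456-75978705 for Kdr, all on the minus strand and written 5′ to 3′. Capitals mark matches on either strand to the GC box GGGCGG, to the core of the hypoxia response element, ACGTG or GCGTG, and to the ETS core GGAA, and neighbouring matches can run together.
Vegfa: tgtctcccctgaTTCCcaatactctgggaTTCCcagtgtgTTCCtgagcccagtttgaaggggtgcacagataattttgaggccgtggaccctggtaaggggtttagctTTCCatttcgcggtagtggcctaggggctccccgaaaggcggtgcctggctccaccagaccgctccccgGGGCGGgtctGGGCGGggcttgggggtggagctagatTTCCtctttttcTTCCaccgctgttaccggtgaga
Flt1: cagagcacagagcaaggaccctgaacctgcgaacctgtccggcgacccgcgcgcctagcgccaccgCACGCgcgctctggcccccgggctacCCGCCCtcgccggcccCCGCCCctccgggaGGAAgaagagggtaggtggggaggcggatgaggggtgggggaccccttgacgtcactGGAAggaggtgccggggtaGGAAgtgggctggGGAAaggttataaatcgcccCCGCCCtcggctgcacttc
Kdr: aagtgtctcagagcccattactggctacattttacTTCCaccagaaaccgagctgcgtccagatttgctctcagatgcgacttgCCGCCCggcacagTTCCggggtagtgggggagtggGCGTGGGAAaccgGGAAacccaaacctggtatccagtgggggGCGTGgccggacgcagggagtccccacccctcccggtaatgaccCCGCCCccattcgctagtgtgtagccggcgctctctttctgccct
The Vegfa window held 2 GC boxes, no hypoxia core and 6 ETS cores, the Flt1 window 3, 1 and 4, and the Kdr window 2, 2 and 4. The window of the other Vegfa start, at chr17:46025164-46025413 and not printed, held 1 GC box, 2 hypoxia cores and 2 ETS cores. This window lies inside the span of Vegfa given above, so it is not sequence upstream of the whole gene. Among 32851 windows of the same length, 32.7% held a GC box, 38.6% a hypoxia core and 93.4% an ETS core. These matches describe letters and not binding.

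After filtering, 10404 nuclei of the untreated, 12008 of the sham and 9792 of the denervated library remained, with medians of 981, 748.5 and 690.5 UMIs. Nuclei were clustered without the 8 members and classes were named from markers of each cell type, so that no value of a member was used to form a class. There were 4621, 3425 and 4992 BA-like and 4763, 5360 and 1363 EC-like nuclei in the untreated, sham and denervated library, besides white adipocyte-like, pericyte-like and smaller classes. Of the markers, Cdh5, which holds endothelial junctions together, stood at 799, 762 and 724 CPM (UMIs of the gene per 1000000 UMIs of the class, in all that follows) in EC-like nuclei against 22.0, 26.2 and 15 in BA-like nuclei, whereas Ppara, a regulator of fat oxidation in brown fat, stood at 888, 1704 and 1474 in BA-like against 27.4, 29.4 and 108 in EC-like nuclei. The tables share 251 to 278 barcodes per pair of libraries, and 129, 250 and 1361 nuclei of the untreated, sham and denervated library lay in sub-clusters with markers of both adipocytes and ECs and were left out of both classes. The remaining EC-like nuclei still had adipocyte markers at 12.9%, 10.1% and 15.2% of their level in BA-like nuclei, and BA-like nuclei had endothelial markers at 3.54%, 3.18% and 3.83% of their level in EC-like nuclei.

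Vegfa was high in BA-like nuclei of every library and low in EC-like nuclei. Its level in BA-like nuclei was 1312 CPM (95% interval 1287 to 1336) in the untreated, 1925 (1886 to 1965) in the sham and 1196 (1166 to 1227) in the denervated library. In EC-like nuclei the levels were 86.9 (76.9 to 97.8), 91.2 (81.1 to 102) and 111 (87.8 to 139). The intervals of the classes lay far apart in each library, and the level was 15.1-fold, 21.1-fold and 10.8-fold higher in BA-like nuclei, a log2 ratio of 3.92 (3.74 to 4.09), 4.40 (4.23 to 4.57) and 3.43 (3.10 to 3.77). With nuclei of mixed markers counted with their class, which a rule made after seeing the data sets aside, the log2 ratios were 3.0, 3.31 and 1.64. BA-like nuclei held 92.8%, 74.7% and 81.7% of the Vegfa UMIs of all kept nuclei. White adipocyte-like nuclei held 17.3% in the sham and 8.16% in the denervated library, where mixed nuclei held another 6.65%. Within BA-like nuclei the level varied little, between 1225 and 1509 over the 6 sub-clusters of the untreated, 1898 and 2065 over the 4 of the sham and 946 and 1227 over the 6 of the denervated library. As a measure of free RNA from adipocytes, 9 adipocyte genes that took no part in the naming, such as Lipe and Fasn, were found in EC-like nuclei at 6.0% to 42.5% of their level in BA-like nuclei in the untreated, 6.16% to 32.4% in the sham and 9.10% to 47.0% in the denervated library. The Vegfa level in EC-like nuclei was 6.62%, 4.74% and 9.30% of that in BA-like nuclei, at the low end of these genes or below it. The part of free RNA in it was not tested.

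**Figure D1:**
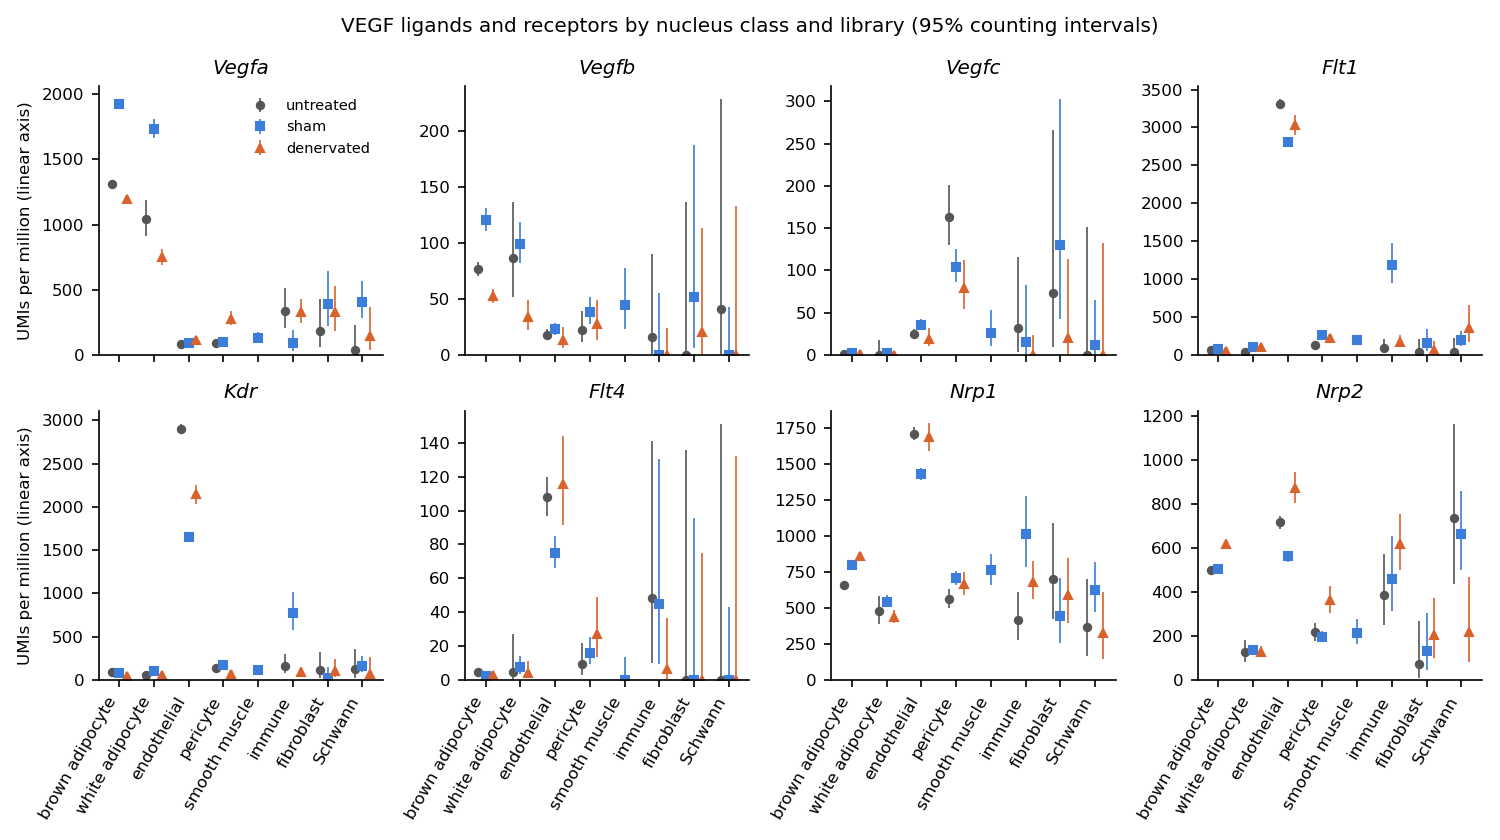
CPM (vertical axis, linear) of each gene by nucleus class (horizontal axis, all names being marker-based) in the untreated, sham and denervated library, with bars for the 95% Poisson interval; smooth muscle-like nuclei were found only in the sham library. Vegfa stands between 1196 and 1925 in brown adipocyte-like nuclei, and Flt1 between 2809.8 and 3314 in endothelial-like nuclei.

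The other ligands divided between classes. Vegfb, a ligand of FLT1 linked to lipid handling, stood at 76.4, 121 and 52.2 CPM in BA-like nuclei and at 17.6, 22.8 and 13 in EC-like nuclei of the untreated, sham and denervated library, a log2 ratio of 2.12 (1.72 to 2.54), 2.40 (2.05 to 2.77) and 2.01 (1.06 to 3.15). Its level in EC-like nuclei was 18.9% to 24.9% of that in BA-like nuclei. This was within the range of the 9 adipocyte genes and above 7, 5 and 6 of them, and the part of free RNA was not tested. Vegfc, the ligand of lymphatic growth, had 9, 13 and 6 UMIs in BA-like nuclei and was higher in pericyte-like than in EC-like nuclei as a whole. Pericytes wrap capillaries, and their nuclei held Vegfc at 163 (131 to 201), 105 (86.5 to 125) and 79.3 (54.2 to 112) CPM against 24.2, 35.6 and 18.8 in EC-like nuclei. Pericyte-like nuclei thus had 47.5%, 44.9% and 57.1% of all Vegfc UMIs while being 5.99%, 11.7% and 8.38% of the nuclei. In all, only 183, 263 and 56 UMIs of Vegfc were counted in the kept nuclei.

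Flt1 and Kdr, the signalling receptors of Vegfa, were high in EC-like and low in BA-like nuclei. Flt1 stood at 3314 (3251 to 3378), 2809.8 (2752 to 2868) and 3028 (2899 to 3160.2) CPM in EC-like nuclei of the untreated, sham and denervated library, against 59.1, 82.7 and 54.8 in BA-like nuclei. Kdr stood at 2902 (2843 to 2962), 1648 (1604 to 1693) and 2144 (2036 to 2256) in EC-like and at 85.0, 75.0 and 41.8 in BA-like nuclei. No interval of one class came near the other, and Flt1 was 56.1-fold, 34.0-fold and 55.3-fold and Kdr 34.1-fold, 22.0-fold and 51.3-fold higher in EC-like nuclei. Flt4 was far sparser, with 343, 240 and 80 UMIs in EC-like nuclei and levels of 108, 75.0 and 116, against 40, 11 and 14 UMIs and levels of 4.75, 2.31 and 2.80 in BA-like nuclei. Of the lymphatic markers, Prox1 had 3, 3 and 4, Lyve1 3, 0 and 2 and Mmrn1 10, 6 and 8 UMIs in the EC-like nuclei, and no cluster was named lymphatic.

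The low receptor levels in BA-like nuclei lay near those of other endothelial genes. The 8 endothelial genes kept out of the naming, such as Cldn5 of the tight junctions and Egfl7, stood in BA-like nuclei at a median of 3.39%, 3.49% and 2.53% of their level in EC-like nuclei, with highest values of 4.34%, 3.99% and 3.93%. Flt1 stood at 1.78%, 2.94% and 1.81% and Kdr at 2.93%, 4.55% and 1.95%, so that Flt1 in all libraries and Kdr in the untreated and denervated libraries lay below the highest of them. Kdr in the sham library and Flt4 in the untreated library, at 4.40%, lay above all 8. The part of free RNA in these levels was not tested. In pericyte-like nuclei the endothelial markers stood at 6.11% to 11.6% of their EC-like level, beside which Flt1 stood at 4.07%, 9.52% and 7.20%. Kdr stood there at 4.52%, 10.3% and 3.35%, and Flt4 at 8.67%, 21.3% and 23.6% on 5, 18 and 11 UMIs.

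Nrp1 and Nrp2, the co-receptors, were found in both classes. Nrp1 stood at 659 (642 to 676), 796 (771 to 822) and 859 (834 to 885) CPM in BA-like nuclei and at 1711, 1431 and 1690.1 in EC-like nuclei. For Nrp2 the levels were 499 (485 to 515), 504 (484 to 524) and 620.3 (599 to 642) in BA-like against 716, 562 and 874 in EC-like nuclei. Both were higher in EC-like nuclei of every library, with log2 ratios of BA-like over EC-like of -1.38 (-1.43 to -1.32), -0.85 (-0.91 to -0.78) and -0.98 (-1.07 to -0.88) for Nrp1 and -0.52 (-0.59 to -0.45), -0.16 (-0.25 to -0.07) and -0.49 (-0.62 to -0.37) for Nrp2. Unlike Flt1 and Kdr, they stood in BA-like nuclei at 38.5% to 55.6% (Nrp1) and 69.7% to 89.7% (Nrp2) of the EC-like level, above all 8 endothelial genes in each library. BA-like nuclei, being many and rich in RNA, held 47.5%, 36.1% and 59.6% of the Nrp1 UMIs and 61.6%, 49.0% and 66.6% of the Nrp2 UMIs of the kept nuclei. Subtraction of ambient RNA turned the Nrp2 ratio of the denervated library to 0.62.

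Counting a member as different where its level differed at least 2-fold, a log2 ratio of 1, on 20 or more UMIs over both groups, Vegfa and Vegfb were higher in BA-like nuclei in all 3 libraries. The denervated Vegfb call rests on 9 UMIs in EC-like nuclei and was lost without doublet removal (0.34) and also with at least 500 detected genes, joint clustering of the libraries or mixed nuclei counted. Those are 2 of 8, 2 of 8 and 2 of 7 members that could be compared, where 28.3%, 25.8% and 25.3% of all compared genes passed in that direction in the untreated, sham and denervated library. In the other direction 5, 4 and 3 members passed, beside 18.7%, 20.9% and 19.0% of all genes. Flt1, Kdr and Flt4 passed in each library, Vegfc in the untreated and sham libraries and Nrp1 in the untreated library. Nrp1 lay near the limit in the others and passed it under some settings, at up to -1.11 in the sham library (ambient subtraction) and -1.17 in the denervated library (median of ratios set to 0). The median log2 ratio over all compared genes was 0.28, 0.13 and 0.19, and the members' ratios shift by that much when it is set to 0.

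**Figure D2:**
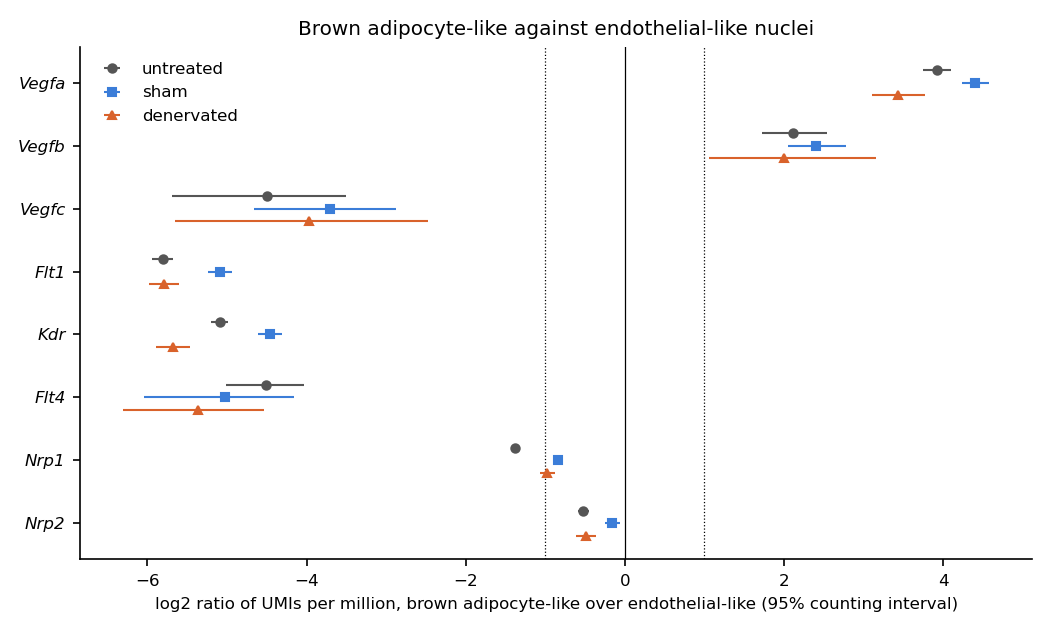
Log2 ratio of CPM in brown adipocyte-like nuclei to that in endothelial-like nuclei (horizontal axis) for the 8 genes in each library, with 95% intervals for counting error; dotted lines mark a ratio of 1 in size. Vegfa and Vegfb lie right of the dotted line at 1, and Flt1, Kdr and Flt4 lie between -5.81 and -4.46.

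The share of nuclei with a UMI followed the levels. Because classes differ in depth, nuclei were thinned to 500 UMIs each, which left out 150, 204 and 555 BA-like and 1713, 2617 and 858 EC-like nuclei with fewer. A Vegfa UMI was then found in 47.6% (46.1 to 49.0), 59.3% (57.5 to 61.0) and 44.0% (42.5 to 45.5) of BA-like and in 3.87%, 3.57% and 4.95% of EC-like nuclei, and without thinning in 83.7%, 86.4% and 63.2% of BA-like nuclei, whose median depths were 1820, 1386 and 889 UMIs. A Flt1 UMI was found in 73.7%, 67.0% and 67.5% of EC-like and 2.84%, 4.25% and 2.41% of BA-like nuclei, and a Kdr UMI in 70.1%, 49.2% and 61.2% and in 4.27%, 4.25% and 2.19%. For Nrp1 the shares in BA-like nuclei were 26.5%, 28.9% and 31.5% and in EC-like nuclei 50.4%, 46.1% and 48.9%. Unthinned EC-like shares, at median depths of 636, 506 and 424 UMIs, were 75.4%, 69.6% and 65.9% for Flt1. Both receptors together were seen in 53.6% of the 3050 thinned EC-like nuclei of the untreated, 34.6% of the 2743 of the sham and 44.2% of the 505 of the denervated library, and neither in 8.0%, 17.4% and 13.9%.

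**Figure D3:**
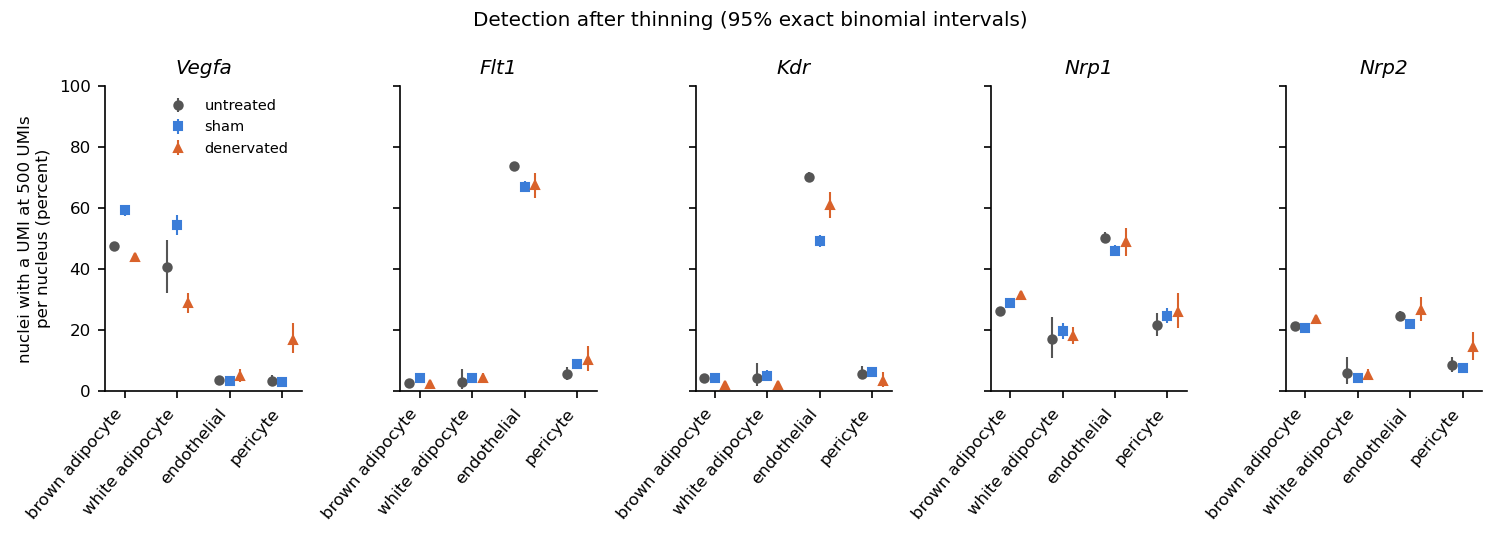
Percent of nuclei with at least 1 UMI of the gene after thinning every nucleus to 500 UMIs (vertical axis), by nucleus class and library, with exact binomial 95% intervals. Vegfa was found in 44.0% to 59.3% of brown adipocyte-like nuclei, and Flt1 in 67.0% to 73.7% of endothelial-like nuclei.

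White adipocyte-like nuclei, named by markers such as Slc7a10 and Npr3, had Vegfa nearer the level of BA-like nuclei than Nrp2. There were 139, 915 and 878 of them, a number that moved with the clustering. It was 139 in the sham library without doublet removal and 104 at resolution 1, 98 in the denervated library with the libraries clustered together and 0 with at least 500 detected genes, and 40 in the untreated library with joint clustering. Vegfa stood at 1043 (909 to 1192), 1734 (1661 to 1809) and 752 (693 to 815) CPM, a log2 ratio to BA-like nuclei of -0.33 (-0.53 to -0.14), -0.15 (-0.22 to -0.08) and -0.67 (-0.79 to -0.55). In the sham library that small difference changed sign, to 0.11, when the median ratio of all genes was set to 0. Nrp2 stood at 125 (81.7 to 183), 136 (116 to 158) and 128 (105 to 156) in white against 499, 504 and 620.3 in brown adipocyte-like nuclei. These intervals do not overlap in any library, and the log2 ratios were -2.0 (-2.61 to -1.45), -1.89 (-2.13 to -1.66) and -2.27 (-2.57 to -1.99). With all libraries clustered together the denervated ratio was -0.62. Nrp1 was closer, with ratios of -0.45, -0.55 and -0.96.

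Within EC-like nuclei, sub-clusters formed without the members differed in Vegfc, Kdr and Nrp2. An arterial-like sub-cluster, led by genes such as Stmn2 and Col8a1, was found in the untreated (282 nuclei) and sham (293 nuclei) libraries. Vegfc stood there at 255.5 and 217 CPM on 52 and 35 UMIs, against 8.41 and 26.0 in the other EC-like nuclei, a log2 ratio of 4.93 (4.21 to 5.68) and 3.06 (2.44 to 3.65). Kdr was lower there, at 1602 against 2991 and 1153 against 1674, and Nrp2 was lower still, at 236 against 749 and 167 against 582, a log2 ratio of -1.67 (-2.11 to -1.26) and -1.80 (-2.41 to -1.25). Flt1 was slightly higher, at 3946 against 3270.4 and 3309.8 against 2783.

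A venous-like sub-cluster, with Vwf and Plvap or Sele among its leading genes, was found in all 3 libraries, with 219, 191 and 371 nuclei. The name follows the marker lists only, and the 3 may not hold the same kind of nuclei. Pgf, another ligand given below, had 34 UMIs in the denervated one and 0 in the untreated and sham ones. Nrp2, which marks veins over arteries in development, stood there at 1086, 800.2 and 941 CPM against 694, 551 and 841 in the other EC-like nuclei. The log2 ratios were 0.64 (0.42 to 0.86), 0.54 (0.24 to 0.82) and 0.16 (-0.09 to 0.41), so that the interval of the denervated library holds 0, where the leading genes of this sub-cluster also held the proliferation gene Mki67. Vegfc was also higher in venous-like nuclei, at 67.2, 89.7 and 39.2 CPM on 12, 12 and 9 UMIs and log2 ratios of 1.63 (0.61 to 2.53), 1.43 (0.43 to 2.30) and 2.18 (0.34 to 4.33). Kdr in the venous-like nuclei stood at a log2 ratio of -1.11 (-1.30 to -0.93), -0.18 (-0.40 to 0.02) and -0.40 (-0.57 to -0.24). Over the alternatives that named such a sub-cluster, the Kdr ratio reached -0.09, 0.14 and 0.29, so that its direction held in the untreated library alone.

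The remaining EC-like sub-clusters could not be named as a vessel type or were named by a response. In the untreated library, nuclei led by the immediate early genes Fos and Nr4a1 (561) and by the interferon-induced genes Ifit1 and Ifit2 (244) had Flt1 at 3406 and 3289, Kdr at 3156 and 2645 and Nrp2 at 716 and 679, close to the other EC-like nuclei. The largest unnamed sub-clusters had Kdr at 3049.6 in the untreated (2838 nuclei), 1409.6 in the sham (2518) and 2332 in the denervated library (992). In that last one adipocyte markers stood at 19.6% of their level in BA-like nuclei, just under the limit of 20% at which nuclei were set aside. A sham sub-cluster of 807 nuclei led by haemoglobin genes had Nrp2 at 281 (232 to 337) and Kdr at 2427 (2278 to 2583), the former below and the latter above the other unnamed sham sub-clusters. The untreated sub-cluster led by haemoglobin genes, with 34 nuclei, did not share the low Nrp2, at 928 (611 to 1350). Another unnamed untreated sub-cluster, of 584 nuclei, had Nrp2 at 436 (364 to 517).

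**Figure D4:**
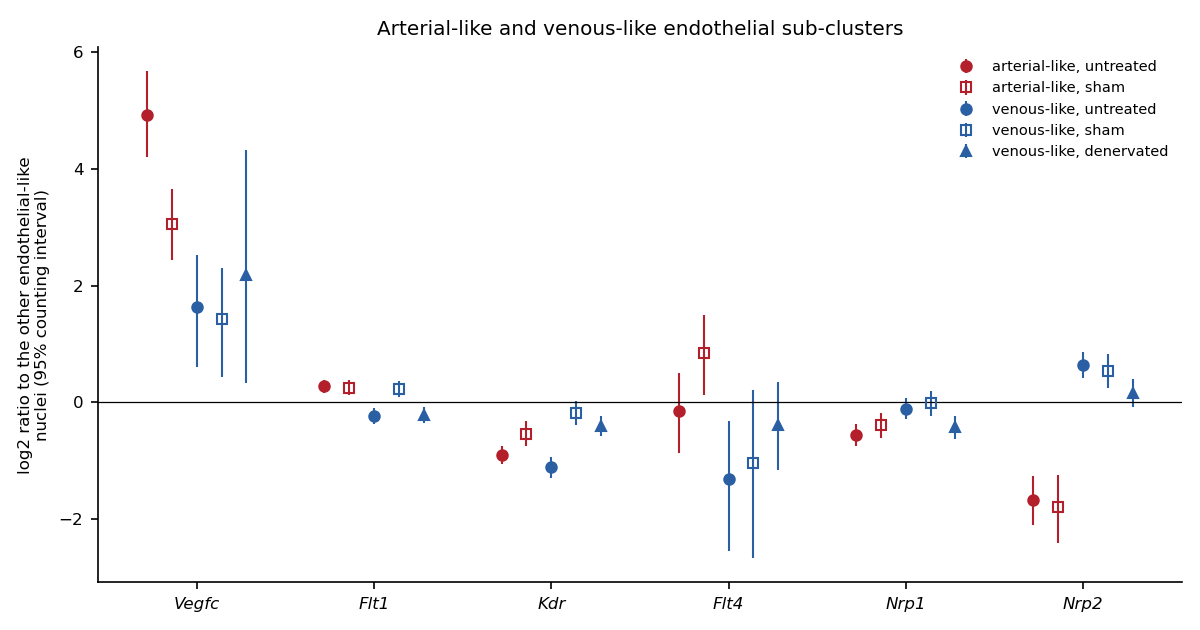
Log2 ratio of CPM in the arterial-like and venous-like sub-clusters to the other endothelial-like nuclei of the same library (vertical axis), with 95% intervals for counting error. Arterial-like nuclei lie at 4.93 and 3.06 for Vegfc and at -1.67 and -1.80 for Nrp2. The venous-like sub-cluster of the denervated library was led by Mki67 and Sele.

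Between libraries, Vegfa in BA-like nuclei was highest in the sham library. The log2 ratio was 0.55 (0.51 to 0.59) for sham against untreated, -0.13 (-0.18 to -0.09) for denervated against untreated and -0.69 (-0.73 to -0.64) for denervated against sham. Vegfb kept the same order, with ratios of 0.66 (0.49 to 0.82), -0.55 (-0.76 to -0.34) and -1.21 (-1.42 to -0.99). White adipocyte-like nuclei showed the same order for Vegfa, with 1734 in the sham, 1043 in the untreated and 752 in the denervated library. The split between these classes moved with the clustering. At resolution 1 the sham library had 104 white and 4244 brown adipocyte-like nuclei, against 915 and 3425. The shared order is therefore not an independent result. Nrp1 in BA-like nuclei was lowest in the untreated library, with ratios of 0.27 (0.21 to 0.33) and 0.38 (0.33 to 0.44) for sham and denervated against it. For Nrp2 they were 0.01 (-0.06 to 0.08) and 0.31 (0.25 to 0.38). All comparisons with a library share its nuclei, and the libraries also differed in the share of mitochondrial UMIs, at 6.71%, 12.9% and 2.95% of the untreated, sham and denervated table. The Vegfa ratio of sham to untreated lay between 0.53 and 0.61 under every alternative run, among them totals without mitochondrial UMIs and a limit of 10% on them. None of these settings can remove a difference between libraries.

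In BA-like nuclei, 2 of 8 members (Flt4, on 11 and 40 UMIs, and Vegfc, on 13 and 9) passed a 2-fold difference for sham against untreated, beside 19.0% of all compared genes, a count that fell to 0 or 1 under 9 alternatives. For denervated against untreated 1 of 7 passed, Kdr at -1.02 (-1.25 to -0.80), beside 10.1%, a call lost with at least 500 detected genes (-0.48) and with joint clustering, and for denervated against sham 1 of 7, Vegfb, beside 24.8%. Kdr in these nuclei stood at 1.95% to 4.55% of its EC-like level, as given above, and the Vegfb call rests on 261 and 574 UMIs.

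In EC-like nuclei none of the 8 members passed between any pair of libraries, where 8.94%, 11.5% and 19.6% of all genes did for sham against untreated, denervated against untreated and denervated against sham. Under other settings this count changed, with ambient subtraction to 3, 2 and 4. Kdr was the member that differed most between sham and untreated, at 1648 against 2902 and a log2 ratio of -0.82 (-0.87 to -0.77). Denervated EC-like nuclei lay between them, with ratios of -0.44 (-0.52 to -0.36) to untreated and 0.38 (0.30 to 0.46) to sham. Over the alternatives the Kdr ratio of denervated to sham lay between -0.06 and 1.69. Flt1 differed less, at -0.24, -0.13 and 0.11 in the same order of comparisons as above, and Nrp1 at -0.26, -0.02 and 0.24. For denervated against sham neither direction held throughout, with Flt1 between -0.45 and 0.18 and Nrp1 between -0.17 and 0.31 over the alternatives. Nrp2 stood at -0.35 (-0.44 to -0.26), 0.29 (0.15 to 0.42) and 0.64 (0.50 to 0.77). Ambient subtraction turned the last 2 to -1.01 and -0.83, and the Kdr ratio of denervated to untreated to 0.40. The denervated EC-like values rest on 1363 nuclei with a median of 424 UMIs, and their adipocyte markers were the highest of the 3.

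**Figure D5:**
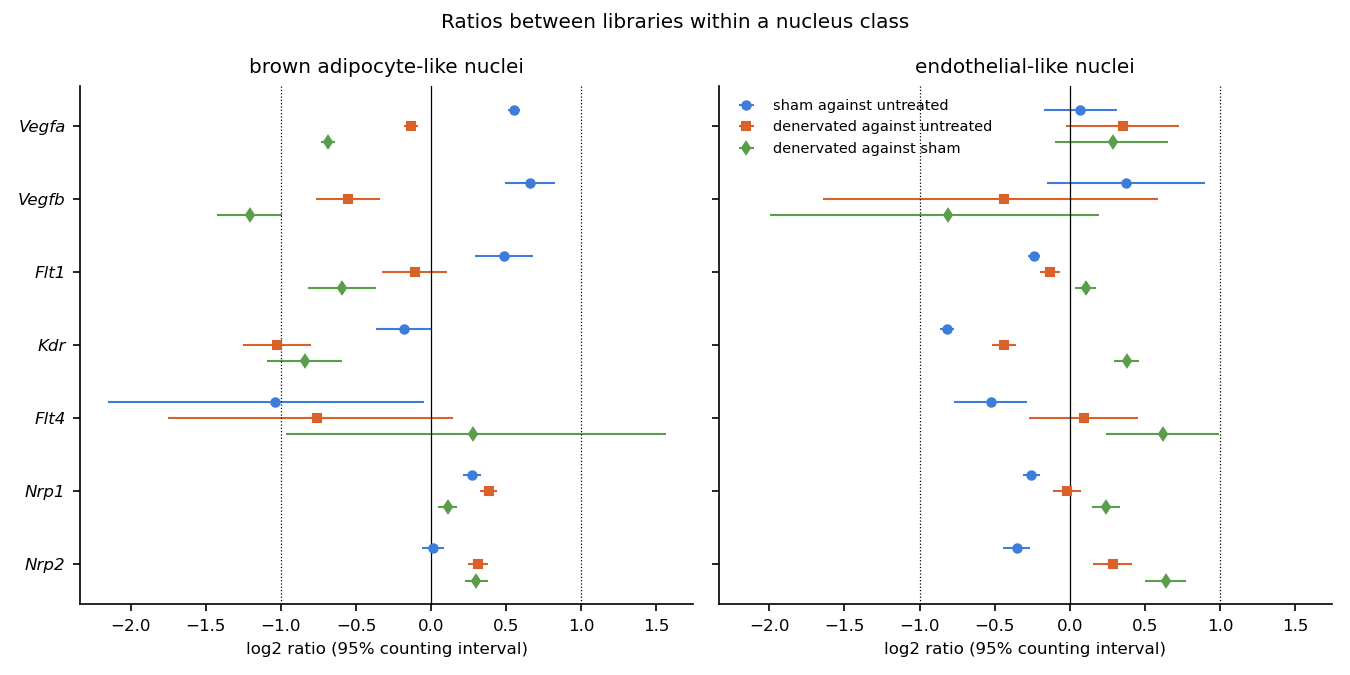
Log2 ratios between libraries (horizontal axis) within brown adipocyte-like nuclei on the left and endothelial-like nuclei on the right, with 95% intervals for counting error; dotted lines mark 1 in size, and Vegfc is left out for its few UMIs. Vegfb lies at -1.21 for denervated against sham, and Kdr at -0.82 for sham against untreated.

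In pericyte-like nuclei Vegfa stood at 88.1, 98.3 and 278 CPM in the untreated, sham and denervated library. The adipocyte markers of these nuclei stood at 16.7%, 13.1% and 30.4% of their BA-like level, highest in the denervated library too, and their part in the difference was not tested. Vegfa there was 6.71%, 5.11% and 23.2% of its BA-like level, where the 9 adipocyte genes had medians of 13.5%, 9.84% and 24.8%. Vegfb in pericyte-like nuclei stood at 29.4%, 31.6% and 52.2% of its BA-like level, above all 9 of these genes in each library, on 12, 43 and 11 UMIs. Nrp1 in pericyte-like nuclei stood at 562, 708 and 664, which is 32.8%, 49.4% and 39.3% of its EC-like level and above 7, 8 and 8 of the 8 endothelial genes. Among the small classes, Flt1 stood at 1189.9 and Kdr at 773 in the 75 immune-like nuclei of the sham library, whose endothelial markers stood at 47.3% of the EC-like level.

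Of the ligands beyond the 8 genes, Vegfd and Pgf were sparse. Vegfd, a ligand related to Vegfc, had 207, 100 and 124 UMIs and 24.6, 21.0 and 24.8 CPM in BA-like nuclei. It passed 2-fold toward BA-like over EC-like nuclei in the untreated and sham libraries, beside 28.3% and 25.8% of all genes. In EC-like nuclei it passed upward for sham against untreated and for denervated against sham, beside 8.94% and 19.6%. For denervated against untreated it was too sparse there to compare. Pgf, placental growth factor, which binds FLT1, had 22, 29 and 41 UMIs in EC-like nuclei, at 6.93 (4.34 to 10.5), 9.06 (6.07 to 13) and 59.2 (42.5 to 80.3). The denervated level lay above both others, a log2 ratio of 3.10 (2.32 to 3.91) to untreated and 2.71 (1.99 to 3.45) to sham. Pgf was not run under the alternatives, over which the denervated EC-like nuclei numbered from 87 to 2724. Its level there also depends on the mix of sub-clusters, at 148 CPM in 371 nuclei and 15.1 in the other 992. In the denervated library 34 of those 41 UMIs came from the 371 nuclei of the sub-cluster led by Mki67 and Sele, and in the sham library 18 of 29 came from 385 nuclei led by the proliferation gene Top2a together with Apln and Pgf.

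Of 15 partners and adaptors, 13 could be compared in each library and 9 were higher in EC-like nuclei in each, while Shb, an adaptor, was higher in BA-like nuclei of the sham library, beside 18.7%, 20.9% and 19.0% of all genes, with a median log2 ratio of -2.16, -1.98 and -1.73. They were led by Ptprb, a phosphatase of endothelial junctions, at 2254 against 41.0 CPM in the untreated library. Dab2 and Fyn, an endocytic adaptor and a Src-family kinase, and Nos3, the endothelial nitric oxide synthase, were the next. Of 9 genes that respond to VEGF in ECs, 8 could be compared and 7, 6 and 7 were higher in EC-like nuclei, beside the same shares of all genes. The list was one of endothelial genes, so this direction was largely given by the choice of genes. In the untreated library Dll4, a Notch ligand of sprouting vessels, stood at 274 against 8.55 CPM. Angpt2, a ligand of TIE2, stood at 17.0 against 0.712. Between libraries in EC-like nuclei, Apln, a peptide of sprouting vessels, and Plvap, a protein of fenestrae, were the 2 of 8 that passed for denervated against untreated, each at a log2 ratio of 2.09, beside 11.5% of all genes. The sub-clusters behind this ratio differed. Of 1363 denervated EC-like nuclei, 371 lay in the sub-cluster named venous-like but led by Mki67 and Sele. Of 4763 untreated ones, 219 lay in the venous-like sub-cluster, which had Plvap among its leading genes. The part of these sub-clusters in the ratio was not tested. The same holds for the members' ratios between libraries in EC-like nuclei. For sham against untreated Apln stood at -1.65 (-2.33 to -1.01) and Plvap at 1.42 (1.10 to 1.75). They were the only ones of 8 that passed there, beside 8.94% of all genes. For denervated against sham 1 of 8 passed, Apln, higher in the denervated library, beside 19.6%.

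Among genes that regulate Vegfa, Ppargc1a and Esrra, a coactivator and a nuclear receptor of mitochondrial genes, were higher in BA-like nuclei of all 3 libraries, at log2 ratios of 4.46, 4.51 and 3.86 and of 3.33, 3.78 and 2.79, and Egln3, an oxygen sensor, in the untreated (2.45) and sham (2.34) libraries. Epas1, which encodes HIF-2α, was higher in EC-like nuclei at -2.19, -2.07 and -2.04. Of 9 that could be compared, 3, 3 and 2 passed toward BA-like and 2, 1 and 1 toward EC-like nuclei, with medians of 0.52, 0.85 and 0.63. Over all genes 28.3%, 25.8% and 25.3% passed toward BA-like and 18.7%, 20.9% and 19.0% toward EC-like nuclei, near the shares of this list. Of the hypoxia targets, 4, 4 and 2 passed toward BA-like and 3, 2 and 2 toward EC-like nuclei of 9, 9 and 8, several of them near the same background. Pfkfb3, a regulator of glycolysis, stood at 409 against 83.1 and Ndrg1, a stress-response gene, at 5.82 against 190 in the untreated library.

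In BA-like nuclei, 0 of 9 Vegfa regulators passed between sham and untreated, 1 of 10 (Hif3a, on 16 and 7 UMIs) between denervated and untreated and 0 of 9 between denervated and sham, where 19.0%, 10.1% and 24.8% of all genes did. Ppargc1a stood at 284, 192 and 293 CPM and Esrra at 336, 219 and 299 in the untreated, sham and denervated library, values chosen after they were seen. Of the hypoxia targets, 2 of 9, 0 of 9 and 3 of 8 passed in these comparisons. Bnip3, a mitophagy receptor, was highest in the sham library, with log2 ratios of 1.54 (1.41 to 1.67) for sham against untreated and -1.35 (-1.50 to -1.20) for denervated against sham, and Slc2a1, the glucose transporter GLUT1, passed in the same comparisons on 26 against 19 and 11 against 26 UMIs. Ndrg1 passed for denervated against sham on 17 against 34 UMIs.

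Over 15 profiles of a class in a library with at least 100 nuclei each, the genes most like each member were named by the Pearson correlation of log2(CPM + 10) among 8378 other genes with at least 50 CPM in 1 profile. The profiles share libraries and depth, and the correlations only describe the pattern. Most like Vegfa were Slc36a2 (0.98), Plin1 (0.98) and Gtf2ird1 (0.98), of which Plin1, the perilipin of lipid droplets, is itself a marker used for naming. Flt1 was followed by Ptprb, Tspan13 and Ppp1r16b (0.99 each), and Kdr by Btnl9, Aqp1 and Tspan13 (0.99 each). For Flt4 they were Gpr4 (0.98), Dok4 (0.96) and Kcnc2 (0.96), and for Vegfc Dapk2 (0.97), Alpl (0.96) and Vangl1 (0.95). Likeness was lower for Nrp1, with Ica1 (0.94), Nr5a2 (0.93) and F11r (0.93), for Nrp2, with Mtch1 (0.91), Pnkd (0.89) and Metap2 (0.88), and for Vegfb, with Lias (0.95), Thap4 (0.90) and Hcar1 (0.90).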

How the data were processed

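Nuclei from the floating layer of digested BAT were sorted and captured by the study on the BD Rhapsody platform, which tags each molecule with a unique molecular identifier (UMI). The authors deposited raw UMI counts per gene and nucleus, without normalization. The headers of 2 tables name the BD Rhapsody pipeline, GRCm38 and GENCODE vM19 with the run names nC (untreated) and nKO (denervated), the sham table has no header, and the labels name Seurat 4.0.6 and GRCh38, which the mouse gene names and the headers go against. The study's methods remove debris with DIEM and ambient RNA with decontX, steps that were not repeated here, so free RNA stays in the values.

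The tables held 13707, 15368 and 15822 barcodes and 14971579, 14725864 and 9420030 UMIs (untreated, sham, denervated). Barcodes with fewer than 200 genes detected or more than 50% of UMIs from mitochondrial genes were dropped, and nuclei with markers of 2 cell types were removed as doublets (1388, 2019 and 670). Each library was clustered by Louvain communities (resolution 0.5, sub-clusters 1) in a graph of 20 neighbours over 30 components, without the members, the pathway genes and the genes that measure free RNA. Classes were named after the best-scoring marker list. The scoring rule was written with the tables at hand, and after seeing the data a rule was added that set aside sub-clusters with the other class's markers at 20% or more of its level, so names may differ from the study's. A class with no replicate library allows no test. UMIs were summed per class and given per 1000000 UMIs of the class (CPM) with an exact Poisson interval, ratios with a conditional binomial interval and shares with a Clopper-Pearson interval, each at 95% and for counting error only. A gene at 0 in 1 group was given a floor of 3 UMIs. The ratio script was tested on simulated data. All 8 members are named, of each pathway list at most the 4 largest ratios per comparison (values of others are given where the libraries are set side by side, chosen after seeing them), and the 3 most alike genes per member. The members and lists were chosen with earlier results of these data known. Python 3 with numpy, scipy and igraph was used. Alternatives were other filters, no doublet removal, resolution 1, joint clustering, other totals, centred ratios, ambient subtraction, means over nuclei, a minimum of 100 UMIs, other thinning and other limits for mixed nuclei. The ambient profile was that of the barcodes with fewer than 200 detected genes (1871, 988 and 5358), scaled by the genes that measure free RNA. Such barcodes can include shallow nuclei, and this was not tested.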

Additional observations from a re-analysis of the deposited data

Results flagged for a closer look

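Between 2 libraries, 3 members moved in opposite directions in BA-like and EC-like nuclei with both 95% counting intervals off 0. The difference between the classes was not tested, since each group is 1 library. For sham against untreated, Flt1 stood at a log2 ratio of 0.49 in BA-like and -0.24 in EC-like nuclei, 0.72 apart, and Nrp1 at 0.27 and -0.26, 0.53 apart. For denervated against sham, the BA-like minus EC-like difference was -0.70 for Flt1 (-0.59 against 0.11) and -1.22 for Kdr (-0.84 against 0.38). Over the alternatives, the opposite directions between sham and untreated held for Nrp1 in all 11 and for Flt1 in the 10 that gave a value in BA-like nuclei. The missing one for Flt1 was ambient subtraction, which left no Flt1 in BA-like nuclei. For denervated against sham they did not hold throughout, with Flt1 between -0.73 and 0.57 in BA-like and between -0.45 and 0.18 in EC-like nuclei, and Kdr between -0.06 and 1.69 in EC-like nuclei. As a percent of the EC-like level, Flt1 and Kdr in BA-like nuclei stood near other endothelial genes, and Nrp1 stood above them.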

How the results depend on the processing

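No paired analysis was possible because each group holds 1 library, and no replicate was left out. All settings keep 1 library per condition, counting error is the only error known, and sparse members (Vegfc, Flt4) rest on few UMIs. The limits on mixed nuclei were chosen after seeing the data. The cause of each shift below was not tested.

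The log2 ratio of Vegfa between BA-like and EC-like nuclei (3.92, 4.40 and 3.43 in the untreated, sham and denervated library) was 3.0, 3.31 and 1.64 with mixed sub-clusters counted with their class. It was 4.60 (sham) and 3.88 (denervated) with at least 500 detected genes, 4.07 and 4.26 without doublet removal, 3.85 (denervated) with a limit of 15% for mixed nuclei, 3.63 (untreated) with the median of ratios at 0 and 5.20 (sham) with ambient subtraction. In the untreated and denervated libraries ambient subtraction left no Vegfa in EC-like nuclei, so no ratio could be had. The Kdr ratio (-5.09, -4.46 and -5.68) was -6.94, -7.26 and -8.99 with ambient subtraction and -5.26, -4.29 and -6.01 with at most 10% mitochondrial UMIs. It was -4.18 (sham) and -5.24 (denervated) without doublet removal, and in the denervated library -5.17 with at least 500 genes, -5.16 with mixed nuclei counted and -5.40 at 15%. In the untreated library it was -5.38 with the median at 0 and -4.88 as a mean over nuclei. Denervated EC-like nuclei numbered 244, 87, 2724 and 371 with at least 500 genes, without doublet removal, with mixed nuclei counted and at 15%, against 1363.

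The count of members past 2-fold between BA-like and EC-like nuclei of the denervated library went from 5 to 3 without doublet removal and lay between 4 and 6 under the other alternatives, not always with the same members (Vegfb was lost and Nrp1 gained under some). Between libraries in BA-like nuclei, the count for sham against untreated went from 2 to 0 (500 genes, 10% mitochondrial, 100 UMIs over both groups) or 1 (no doublet removal, resolution 1, joint clustering, mixed nuclei counted, totals without mitochondrial UMIs, median at 0). For denervated against untreated it went from 1 to 0 (500 genes, joint clustering) and for denervated against sham from 1 to 2 (500 genes, mixed nuclei counted). In EC-like nuclei the count of 0 became 1 (500 genes, 10% mitochondrial) or 3 (ambient subtraction) for sham against untreated. For denervated against untreated it became 2 (500 genes, no doublet removal, mixed nuclei counted, ambient subtraction) or 1 (10% mitochondrial, mean over nuclei). For denervated against sham it became 4 with ambient subtraction and 1 under 500 genes, 10% mitochondrial, no doublet removal, joint clustering, mixed nuclei counted, totals without mitochondrial UMIs, median at 0 and mean over nuclei.

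The share of BA-like nuclei with a Vegfa UMI (47.6%, 59.3% and 44.0%) was 31.9%, 41.3% and 29.6% thinned to 300 UMIs and 83.7%, 86.4% and 63.2% without thinning, 61.5% (sham) with at most 10% mitochondrial UMIs and 41.8% (denervated) with joint clustering. The share of EC-like nuclei with a Flt1 UMI (73.7%, 67.0% and 67.5%) was 57.0%, 53.4% and 54.8% at 300 UMIs, 75.4% and 69.6% (untreated, sham) without thinning, and in the denervated library 55.6% without doublet removal and 52.4% with mixed nuclei counted. Of the other values for single members, 645 stayed within their counting interval and 218 moved. Ratios that could not be had under a setting are not in these counts. Ambient subtraction turned Nrp2 between BA-like and EC-like nuclei of the denervated library to 0.62, Nrp2 in EC-like nuclei to -1.01 (denervated against untreated) and -0.83 (against sham), and Kdr there to 0.40 (denervated against untreated).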
